A study of Caenorhabditis elegans with 79 samples.

Results

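mir-5592 is a small hairpin locus of the nematode Caenorhabditis elegans, and the small interfering RNAs (siRNAs) that come from it are described here across 59 small RNA libraries. The members were taken by name: every sequence that the authors had placed in their class of 23H-RNAs and named for mir-5592 was kept. This gave 39 sequences in each of 6 deposited tables, out of 1193 or 1194 sequences of the 23H-RNA class and 25897 to 25903 features of all kinds per table. How the authors drew the borders of that class is not given in the sources used here, so Argonaute libraries may have had a part in it. The locus was chosen by RPM values already seen in the GFP::RDE-1 libraries on nrfl-1 RNAi, so those libraries are described below without a test.

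In animals, long double-stranded RNA is cut by the nuclease Dicer into short duplexes, and an Argonaute protein keeps one strand, the guide, while the passenger strand is lost. In C. elegans the double-stranded RNA binding protein RDE-4 works with Dicer (DCR-1), and the Argonaute RDE-1 takes up the resulting primary siRNAs. ALG-1 is a different Argonaute that mainly carries microRNAs, which the same Dicer cuts from short hairpins. A guide recognises its targets chiefly through its seed, bases 2 to 8 from the 5′ end.

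The libraries fall into 6 sets of whole animals grown at 20 °C. L4 larvae at 54 h, without RNAi, were rde-4(syb6665) or wild-type N2 (n = 3 each). Adults at 72 h on bacteria carrying double-stranded RNA to nrfl-1 and oma-1 were rde-1(ne300), rde-4(syb6665) or N2 (n = 3 each). The other 4 sets pair a co-immunoprecipitate (co-IP) of a tagged Argonaute with its input RNA from gravid hermaphroditic adults. GFP::RDE-1 animals, all carrying rde-1(cmp133), a GFP::3xFLAG tag on rde-1, had rde-4(syb6665) or wild-type rde-4 and were fed nrfl-1 RNAi (n = 3 per group) or nrfl-1 and oma-1 RNAi, here called double RNAi (n = 2 per group). HA::ALG-1 animals, with the ram4 transgene in an unc-119(ed3) background, had rde-4(syb6665) or wild-type rde-4 and were fed nrfl-1 RNAi (n = 3 per group). The last GFP::RDE-1 set carried rde-1(cmp133) and rde-4(cmp320), a 2xFLAG tag on rde-4, in every library and was fed dcr-1 RNAi or the empty vector L4440 (n = 3 per group). The labels do not say whether replicates were separate cultures, so p-values rest on the spread between these libraries, which may be technical. The fit used below also draws the spread of each siRNA toward that of other features of like level. An SE or p-value can thus be smaller than the libraries of that siRNA alone would give. In whole animals, fewer cells that make an siRNA and less of it per cell cannot be told apart.

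Values are RPM, reads scaled to the size of the library by the authors, one value for each sequence. Levels of siRNAs can thus be set beside each other, with a limit for some given below. Depth, read from the steps between low piRNA values, was 12.3 to 37.2 M (mega) reads in 58 of the 59 libraries, and 3 reads correspond to 0.0806 to 0.244 RPM, which covers counting error only. For replicate 2 of the L4440 RDE-1 co-IPs depth could not be read. The labelled stages were checked with the mir-35 family, microRNAs abundant in the embryos that gravid adults carry: it summed to 961 to 1421 RPM in the larvae and to 13838 to 30915 RPM in the adults on double RNAi. In those adults it was lower in rde-4 (13838 to 14440 RPM) than in N2 (28700 to 30915 RPM). In the larvae it was lower too (961 to 1099 against 1283 to 1421 RPM). The same held for rde-4 inputs against wild-type inputs, with no overlap. On nrfl-1 RNAi the GFP::RDE-1 inputs had 106316 to 119558 against 161255 to 196109 RPM. On double RNAi they had 18677 and 20793 against 38634 and 33907 RPM. The HA::ALG-1 inputs had 61903 to 63923 against 96908 to 119836 RPM. The part of this difference in the results below was not tested. RppH treatment is named for the double RNAi set, and which other sets had it is not given here. MicroRNAs made up 29.3 to 34.3% of the totals of its inputs. They made up 94.8 to 97.4% in the GFP::RDE-1 inputs on nrfl-1 RNAi and 90.7 to 93.8% in the HA::ALG-1 inputs. Levels and shares set beside each other between sets are thus a description only. The rde-4 libraries of the double RNAi set were unequal. The siRNAs of the 23H kind made from the fed nrfl-1 RNA stood at 1270 and 348 RPM in the 2 rde-4 co-IPs and at 127 and 474 RPM in the 2 rde-4 inputs. The values that moved most when 1 of these libraries was left out are given with the results.

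The hairpin is annotated as a pair of microRNA genes lying over each other on opposite strands of the X chromosome (WBcel235): cel-mir-5592-1 at chrX:13759245-13759308 on the minus strand and cel-mir-5592-2 at chrX:13759247-13759310 on the plus strand. They share 62 of their 64 bases, and reads from one cannot be told from reads of the other. Both lie within the intron between exons 4 and 5 of transcript F55F3.1.2 of aakb-1 (WBGene00010115), a plus-strand gene for a beta subunit of AMP-activated protein kinase, and overlap none of its exons or UTRs. Merged by their overlaps, the 39 siRNAs form 2 arms of 29 nt, here called the major and the minor arm by their levels. Capitals mark the 27 bases over which the arms are perfectly complementary (5′ to 3′, in the DNA letters of the files, with T for U).
major arm: CATGTATTAAACGGTAAGGGCCGGCTGgg
minor arm: CAGCCGGCCCTTACCGTTTAATACATGtt

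Each siRNA is named here by its arm (M for major, S for minor), the base of that arm at which it begins, and its length, so that M3/23 begins at base 3 of the major arm and is 23 nt long. The siRNAs below are those on which the results turn, and they show how a shift of the 5′ end changes the seed, which is in capitals.
M1/22: cATGTATTaaacggtaagggcc
M3/23: tGTATTAAacggtaagggccggc
M4/22: gTATTAAAcggtaagggccggc
M5/23: tATTAAACggtaagggccggctg
M6/23: aTTAAACGgtaagggccggctgg
M7/22: tTAAACGGtaagggccggctgg
S5/23: cGGCCCTTaccgtttaatacatg
M3/23 and S5/23 form a duplex with 2-nt overhangs at both 3′ ends, the shape that Dicer leaves. Of the 39 members, 26 fall into 13 such duplexes. M3/23, M4/22 and M5/21 all stop at base 25 of the major arm and differ at the 5′ end alone. M3/21, M3/22, M3/23 and M3/24 share one seed, and M1/21, M1/22 and M1/23 share another.

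The major arm gave 25 of the members, at 8 start positions and so with 8 different seeds, and the minor arm gave 14, at 7 start positions. By length, 10 members had 21 nt, 12 had 22 nt, 12 had 23 nt and 5 had 24 nt. By first base, 12 began with T, all on the major arm, 13 with C, 8 with A and 6 with G. Averaged over the 6 tables with equal weight, which the RDE-1 co-IPs dominate, M3/23 was the most abundant at 1295 RPM, ahead of M3/22 at 111 RPM, M1/22 at 91.1 RPM, S5/23 at 62.1 RPM and M5/23 at 57.2 RPM. M3/23 made up 20.3 to 98% of the summed level across the 59 libraries. M8/21 also carried the names R07C3.18 and R07C3.19 in the tables. In rde-4 adult replicate 3, M6/22, M6/23 and M7/23 each stood at 0.03 RPM, where 3 reads are 0.136 RPM. That is under the level of a single read, so reads of siRNAs from these bases were not all counted whole. Their levels are less safely set beside those of the other siRNAs. M3/24, M5/22, M7/22 and S5/24, and sums by first base, were singled out below after their values had been seen.

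**Figure D1:**
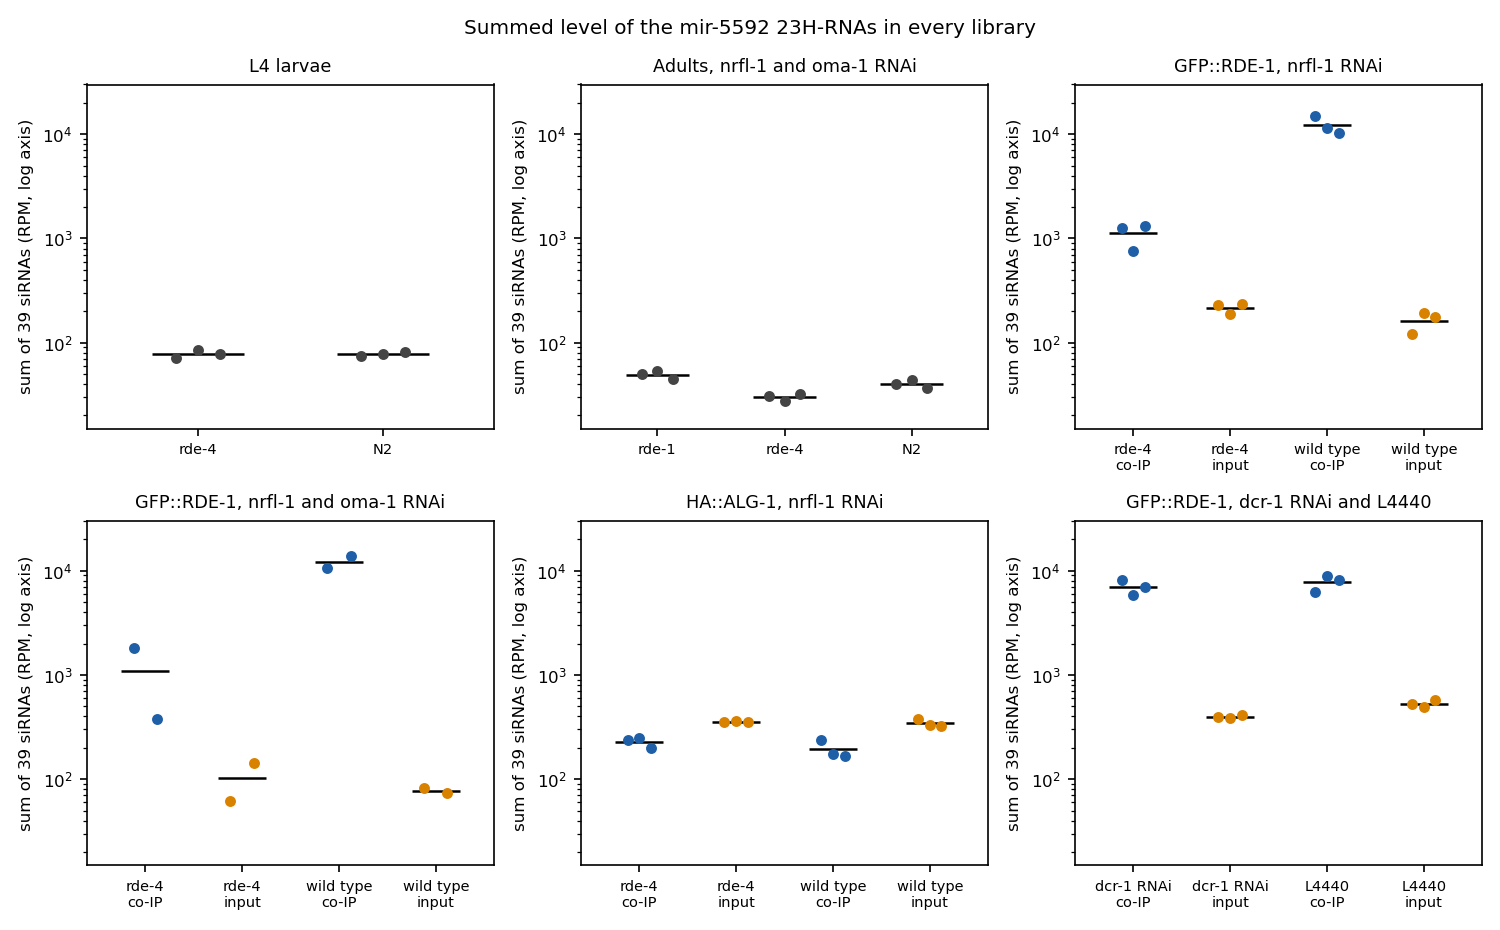
Summed RPM of the 39 siRNAs in each library (points, log axis) with the group mean (line), by set; blue points are co-IPs, orange points their inputs and grey points total RNA. Every GFP::RDE-1 co-IP without an rde-4 mutation lies at 5841 RPM or above, while the HA::ALG-1 co-IPs lie below their inputs.

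RDE-1 co-IPs were strongly enriched for siRNAs of both arms. In the double RNAi set with wild-type rde-4 the summed level was 10641 and 13703 RPM in the co-IPs, against 81.8 and 73.4 RPM in the inputs, a ratio of means of 157. M3/23 stood at 8199 and 10575 RPM in the co-IPs, against 43.2 and 43.9 RPM in the inputs. It rose by 7.71 ± 0.41 (SE) on the log2(RPM + 1) scale, with an adjusted p of 8.75e-17 (limma fitted across all features, Benjamini-Hochberg adjustment; the same for every adjusted p below). Its partner strand S5/23 rose by 5.82 ± 0.42 (adjusted p = 1.14e-13), with 66.4 and 93.8 RPM in the co-IPs and 0.48 and 0.36 RPM in the inputs. Both strands of the duplex were thus recovered with RDE-1, M3/23 at 123 and 113 times the level of S5/23. The inputs had like ratios, 90.1 and 122. As 1 RPM is added before the log, the rise of S5/23, with inputs under 1 RPM, is understated beside that of M3/23.

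Of the 39 members, 14 passed the filter on low values in this table, a mean of at least 10 RPM, and all 14 were called higher in the co-IP at an adjusted p under 0.05; 99.1% of the 4372 features tested were called, 4% higher and 95.1% lower. Only M3/22 and M3/23 reach that mean without these co-IPs. The other 12 passed through them and had to differ, so nothing is read from the count. S5/23, M5/23, M1/22 and M4/22 are among the 12, so their adjusted p values with the filter are no support either. With no filter the adjusted p was 0.000617 for S5/23, 0.000325 for M5/23, 0.000446 for M1/22 and 0.0038 for M4/22. With no filter, 38 of the 39 were called higher, where 6.22% of 20283 features were. Each of the 39 had both co-IP values above both input values, as did 7.18% of the 20283 features.

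M5/23, which like M3/23 begins with T, rose by 7.40 ± 0.37 (adjusted p = 2.37e-17), with 479.6 and 727 RPM in the co-IPs and 2.6 and 2.42 RPM in the inputs. M1/22, which begins with C, rose by 7.32 ± 0.43 (adjusted p = 6.56e-16), with 591 and 714 RPM in the co-IPs and 2.89 and 3.28 RPM in the inputs.

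Of the members past the filter, M4/22 had the lowest enrichment with RDE-1. It lacks only the first base of M3/23, so that it begins with G, and it had 64.2 and 74.4 RPM in the double RNAi co-IPs, against 11 and 10.7 RPM in the inputs, the smallest rise of the 14 (2.56 ± 0.36, adjusted p = 6.37e-08). In the L4440 libraries it had 16.2, 24 and 19.1 RPM in the co-IPs, against 27.6, 29.4 and 28.6 RPM in the inputs, and was the only one of 17 members called lower there (-0.53 ± 0.23, adjusted p = 0.0313, where 90.1% of features were called lower). That call was lost when any one of 4 of the 6 libraries was left out (adjusted p 0.0518 to 0.12). In the nrfl-1 RNAi set with wild-type rde-4 it had 34.2, 44.8 and 25.8 RPM in the co-IPs and 25.4, 46.1 and 31.9 RPM in the inputs, groups that overlap. siRNAs that begin with G formed 0.0748 to 0.666% of the summed level in the GFP::RDE-1 co-IPs and 5.09 to 26.6% in the libraries of input or total RNA. The difference between M4/22 and its neighbours was not tested.

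In animals fed the empty vector L4440 the RDE-1 co-IPs had a summed level of 6207, 8839 and 8126 RPM, against 522, 491 and 572 RPM in the inputs, a ratio of means of 14.6. Of the 17 members past the filter, 16 were called higher, where 96.7% of 2516 features were called and 6.6% were called higher. As 9 of the 17, M5/23 among them, passed the filter only through the co-IPs of this set, nothing is read from that count. With no filter 32 of the 39 were called higher, where 3% of 23892 features were. The largest rise was that of M5/23, with 192, 279 and 286 RPM in the co-IPs and 3.89, 3.08 and 4.27 RPM in the inputs (5.72 ± 0.23, adjusted p = 1.36e-20). With no filter the adjusted p of M5/23 was 6.97e-11. S5/23 rose by 5.43 ± 0.20 (adjusted p = 1.97e-21), with 467, 455 and 639.7 RPM in the co-IPs and 9.84, 10.4 and 12.8 RPM in the inputs. M3/23 was 6.41 to 10.3 times as abundant as S5/23 in these co-IPs and 17.1 to 19.5 times in their inputs. RNA of this set was not size-selected before library preparation and no RppH treatment is labelled, which cannot be told apart from the set itself.

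**Figure D2:**
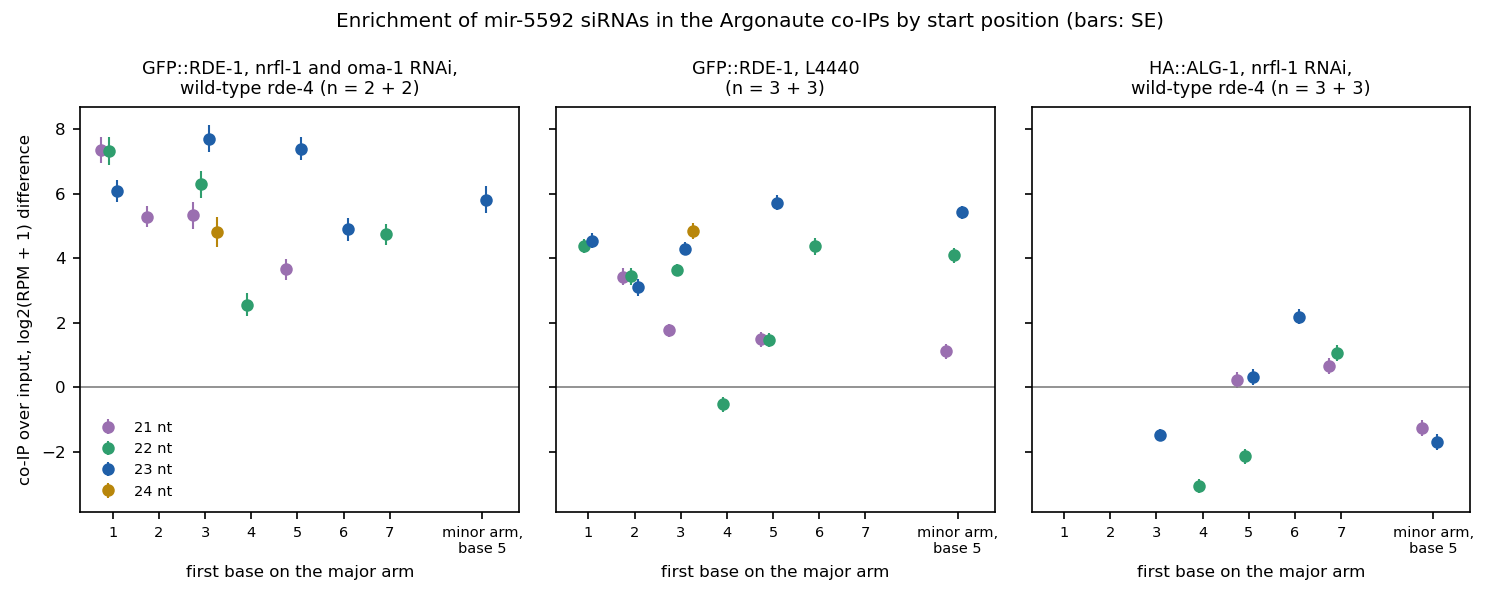
Difference between co-IP and input on the log2(RPM + 1) scale for each member past the filter, by its first base on the major arm (x axis; minor arm at the right) and coloured by length, with SE bars. In both RDE-1 panels M4/22 is the lowest point; in the ALG-1 panel M6/23 is the highest, at 2.19 ± 0.24, and M4/22 again the lowest, at -3.05 ± 0.23.

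RDE-1 co-IPs from rde-4 animals held less of the mir-5592 siRNAs in sum than co-IPs with wild-type rde-4, and M3/22 and M3/23 were higher in them than in their inputs in both RDE-1 sets that have the mutant. In the double RNAi set the rde-4 co-IPs had a summed level of 1826 and 374 RPM, against 62 and 143 RPM in the rde-4 inputs, a ratio of means of 10.7. Enrichment was called lower in rde-4 than with wild-type rde-4 for 14 of 14 members past the filter (limma interaction), where 1.9% of features were called lower and 1.4% higher; as 12 of them passed the filter only through the wild-type co-IPs, nothing is read from that count. With no filter 18 of the 39 were called lower, where 2.64% of 20283 features were. M3/23 had 1630 and 324 RPM in the rde-4 co-IPs, against 33.8 and 103 RPM in the rde-4 inputs, and was still called higher (3.60 ± 0.41, adjusted p = 1.68e-07). With no filter its adjusted p was 0.0132. Its libraries were unequal, and its SE leans on the spread of other features.

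With rde-4 mutant, 6 of the 14 were called higher in the co-IP (95.4% of features called, 2.9% higher and 92.5% lower), namely M3/21, M3/22, M3/23, M3/24, S5/23 and M6/23. M3/22 had 80.7 and 14.2 RPM in the rde-4 co-IPs, against 2.04 and 3.37 RPM in the rde-4 inputs (3.27 ± 0.42, adjusted p = 4.45e-07). M6/23 passed narrowly (0.81 ± 0.36, adjusted p = 0.0323) and lost the call without rde-4 co-IP replicate 1 (0.24), without rde-4 input replicate 1 (0.70) or without either input with wild-type rde-4 (adjusted p 0.0578 and 0.058). With no filter 3 of the 39 were called higher, M3/21, M3/22 and M3/23, where 0.853% of 20283 features were, and M3/24 (adjusted p = 0.0649), M6/23 (adjusted p = 0.227) and S5/23 (adjusted p = 0.0544) lost the call.

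M1/22 and M5/23 did not pass the test in the rde-4 co-IPs. M1/22 had 7.66 and 1.92 RPM in the rde-4 co-IPs and 0.8 and 5.78 RPM in the rde-4 inputs, overlapping groups (0.53 ± 0.43, adjusted p = 0.236), and its enrichment differed from that with wild-type rde-4 by -6.79 ± 0.61 (adjusted p = 9.44e-11). M5/23 had 3.28 and 3.29 RPM in the rde-4 co-IPs and 1.24 and 5.52 RPM in the rde-4 inputs, and its enrichment differed most of the 14 (-7.23 ± 0.52, adjusted p = 1.43e-12). M1/22 and M5/23 passed the filter only through the wild-type co-IPs. With no filter the adjusted p of this difference was 0.0194 for M1/22 and 0.00387 for M5/23. For M3/23 this difference was -4.11 ± 0.58 (adjusted p = 2.04e-06) and for S5/23 -3.86 ± 0.59 (adjusted p = 1.04e-05). With no filter on low values, the interaction of M3/21, M3/22, M3/23, M3/24, M4/22 and S5/23 missed the threshold (adjusted p 0.0681 to 0.422). M3/22 and M3/23, which pass the filter without the wild-type co-IPs, are among these. M3/22 lay under 10 RPM in every input, so without the wild-type co-IPs it passed only through the rde-4 co-IPs.

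The unequal rde-4 libraries moved these values. Without rde-4 co-IP replicate 1 the log2 ratio of summed levels in rde-4 was 1.87, and without rde-4 input replicate 2 it was 4.15, against 3.42 with all libraries. Over the fits without 1 of the 4 rde-4 libraries, the rde-4 co-IP differed from its input by 2.43 to 4.76 for M3/23, 2.06 to 4.49 for M3/22 and 0.87 to 3.04 for S5/23, each called in all 4, with the lowest value without co-IP replicate 1. The difference in enrichment from wild-type rde-4 was -5.27 to -2.95 for M3/23, -4.95 to -2.77 for S5/23, -7.75 to -5.83 for M1/22 and -8.0 to -6.46 for M5/23, each called in all 4. M3/24 lost its call in the rde-4 co-IP without co-IP replicate 1 (adjusted p = 0.0747) and its difference in enrichment without co-IP replicate 2 (adjusted p = 0.0981). M1/21, M1/22 and M5/23 were called higher in the rde-4 co-IP without rde-4 input replicate 2, at 1.37, 1.48 and 0.94.

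In the nrfl-1 RNAi set, described without a test, summed levels in the rde-4 co-IPs lay between those of the inputs and those of the co-IPs with wild-type rde-4. The summed level was 1270, 761 and 1323 RPM in the rde-4 co-IPs, against 229, 189 and 233 RPM in the rde-4 inputs. With wild-type rde-4 it was 14958, 11550 and 10252 RPM in the co-IPs, against 122, 193 and 174 RPM in the inputs. M3/23 alone gave 90.4 to 98% of the sum in the rde-4 co-IPs and 83.6 to 92.4% in the co-IPs with wild-type rde-4, where it stood at 1244, 688 and 1232 RPM and 13823, 9908 and 8568 RPM. The other siRNAs from base 3 differed among themselves. M3/22 had 4.25, 6.95 and 14.3 RPM in the rde-4 co-IPs, all above the 2.4, 2.15 and 2.68 RPM of the rde-4 inputs. M3/24 had 0.8, 1.88 and 6.51 RPM in the rde-4 co-IPs, all below the 7.43, 6.98 and 7.52 RPM of the rde-4 inputs. M3/21 had 1.28, 0.46 and 3.54 RPM in the rde-4 co-IPs and 1.51, 0.99 and 1.66 RPM in the rde-4 inputs, overlapping groups. On the minor arm, S5/23 had 3.21, 13.8 and 19.9 RPM in the rde-4 co-IPs and 24.6, 18.7 and 24.2 RPM in the rde-4 inputs. These groups overlap, mostly lower in the co-IPs. M3/24 and S5/23 thus did not go the same way in both RDE-1 sets with the mutant.

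The siRNAs from base 1 summed to 2.27, 2.94 and 4.24 RPM in the rde-4 co-IPs, all above the 1.69, 1.16 and 1.56 RPM of the rde-4 inputs. With wild-type rde-4 they summed to 574, 769.5 and 702 RPM in the co-IPs, against 2.58, 4.94 and 3.36 RPM in the inputs. M5/23 had 0.24, 4.47 and 3.44 RPM in the rde-4 co-IPs and 271, 344 and 364 RPM in the co-IPs with wild-type rde-4. Members of 23 nt formed 94.2 to 98.3% of the sum in the rde-4 co-IPs, against 58.6 to 59.3% in the rde-4 inputs, and 89.8 to 95% in the co-IPs with wild-type rde-4, against 45.1 to 52% in their inputs.

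**Figure D3:**
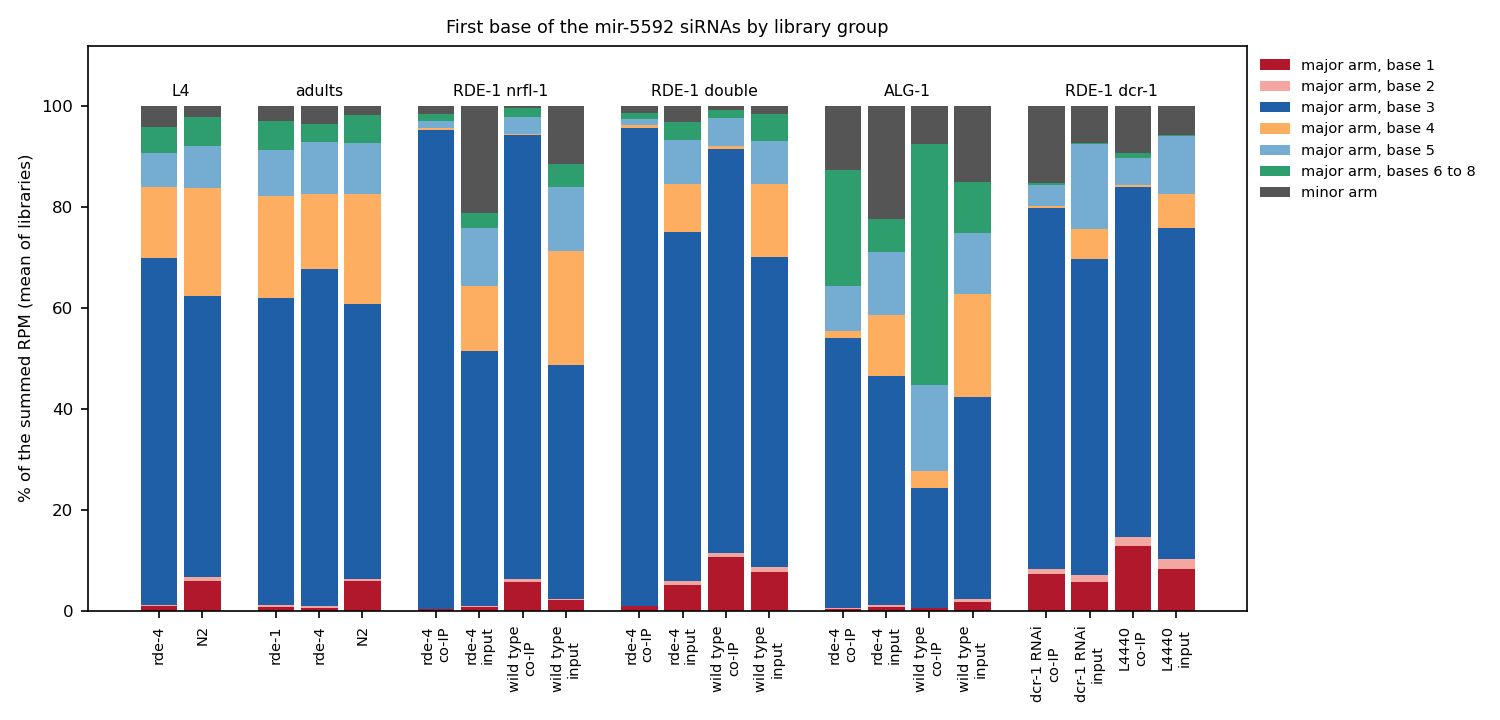
Share of the summed RPM by first base on the major arm, and of the minor arm, as the mean of the libraries of each group (stacked bars, %). Base 3 fills most of every RDE-1 co-IP, and bases 6 to 8 fill 45.4 to 50.3% of the ALG-1 co-IPs with wild-type rde-4.

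In total RNA of L4 larvae the summed level was alike in rde-4 and N2. It was 72, 84.9 and 78.6 RPM in rde-4 and 75.2, 77.1 and 80.5 RPM in N2, overlapping groups with a ratio of means of 1.01 and a log2 ratio of 0.02 (SD 0.129). All other 23H-RNAs together had 69.3, 61.5 and 72 RPM in rde-4, against 429.7, 438 and 448 RPM in N2, so that mir-5592 made up 50.9 to 58% of the class in rde-4 and 14.9 to 15.2% in N2. F43E2.6, a source of endogenous 23H-RNAs with 87 sequences, had 12.5 to 13.6 RPM in rde-4 larvae and 362 to 379.5 RPM in N2 larvae. Another hairpin source in the class, with 123 sequences, had 24.9 to 27 RPM in rde-4 larvae and 29 to 31.8 RPM in N2 larvae, groups that do not overlap. The difference between these loci was not tested.

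Beneath the like sums, M4/22 was lower in rde-4 larvae and M3/23 was called higher, a call that did not hold in every fit. Only 2 members passed the filter, 1 called higher and 1 lower, where 34.6% of 4482 features were called, 27.8% higher and 6.74% lower. M3/23 had 44.3, 54.7 and 53 RPM in rde-4, against 38.4, 39.2 and 44.8 RPM in N2, overlapping groups (0.30 ± 0.09, adjusted p = 0.0251). Its call was lost when any one of 4 of the 6 libraries was left out, under equal totals and with no filter (adjusted p 0.0509 to 0.104). M4/22 fell to 11.2, 10.0 and 10.1 RPM in rde-4, against 15.7, 16.8 and 14.8 RPM in N2, groups that do not overlap (-0.56 ± 0.09, adjusted p = 0.000801).

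Fitted with no filter on low values, 3 of 37 members tested were called higher in rde-4 larvae (5.94% of 20943 features) and 4 lower (9.11%). These counts lie near the shares of all features, so nothing about the locus is read from them. S5/23 rose to 2.43, 2.72 and 1.9 RPM in rde-4, against 0.85, 0.35 and 0.73 RPM in N2 (1.03 ± 0.17, adjusted p = 0.00204). M3/24, which extends M3/23 by 1 base at its 3′ end, rose to 1.76, 1.36 and 1.49 RPM in rde-4, against 0.32, 0.4 and 0.6 RPM in N2 (0.82 ± 0.14, adjusted p = 0.00199). S5/24 was the remaining one called higher, at a mean below 1 RPM. M1/22 fell to 0.26, 0.41 and 0.68 RPM in rde-4, against 2.29, 3.52 and 2.06 RPM in N2 (-1.31 ± 0.19, adjusted p = 0.000656), as did M1/21 (-1.27 ± 0.14, adjusted p = 6.87e-05), which shares its seed. Several of these values are a few reads each.

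Adults on double RNAi differed in the sum, which was 50.2, 53.3 and 44.8 RPM in rde-1, 31, 27.7 and 32.2 RPM in rde-4 and 39.9, 43.8 and 36.6 RPM in N2, with no overlap between any of the groups. M3/23, the only member past the filter, had 29.8, 32.2 and 24 RPM in rde-1, 17.6, 17.1 and 20.6 RPM in rde-4 and 21.7, 22.4 and 17.9 RPM in N2. It was called higher in rde-1 than in N2 (0.45 ± 0.12, adjusted p = 0.0258; 7.52% of 5450 features called higher, 7.96% lower), but not without any one of 4 of the 6 libraries or with no filter (adjusted p 0.0507 to 0.11). The rde-4 value against N2 was -0.16 ± 0.12 (adjusted p = 0.296; 34.1% of features called, 28% higher and 6.17% lower). Against rde-1 it was lower (-0.60 ± 0.12, adjusted p = 0.00321; 30.5% of features called, 22.3% higher and 8.24% lower). These 3 comparisons share libraries. The other hairpin source of 123 sequences had 78.8 to 87.9 RPM in rde-1, 40.3 to 49 RPM in rde-4 and 39.3 to 52.9 RPM in N2.

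Below the filter, M3/24 and S5/23 stood above N2 in both adult mutants, and M1/22 below it. M3/24 had 0.85, 0.96 and 1.21 RPM in rde-1, 0.98, 0.98 and 0.72 RPM in rde-4 and 0.09, 0.2 and 0.2 RPM in N2, with every mutant value above every N2 value. With no filter it was called higher in rde-1 (0.78 ± 0.12, adjusted p = 0.00463; 1.82% of 20002 features) and in rde-4 (0.70 ± 0.12, adjusted p = 0.00675; 4.78%). S5/23 had 1.28, 0.48 and 1.21 RPM in rde-1, 0.75, 0.52 and 1.04 RPM in rde-4 and 0.09, 0.2 and 0.4 RPM in N2, and passed the test in neither mutant.

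M1/22 fell in both adult mutants, to 0.33, 0.1 and 0.05 RPM in rde-1 (-1.06 ± 0.12, adjusted p = 0.000646; 2.08% called lower with no filter) and to 0.05, 0.23 and 0.09 RPM in rde-4 (-1.10 ± 0.12, adjusted p = 0.000274; 2.3%), against 1.38, 1.21 and 1.66 RPM in N2. Of these 6 mutant values, 4 lie under the level of 3 reads. M4/22 had 8.61, 10.1 and 9.65 RPM in rde-1, 4.76, 3.62 and 4.62 RPM in rde-4 and 8.03, 8.41 and 8.18 RPM in N2, and was called lower in rde-4 against N2 (-0.79 ± 0.11, adjusted p = 0.00131, with no filter).

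The inputs of the HA::ALG-1 strains had like sums, 352, 360.4 and 357 RPM in rde-4 and 377, 329 and 323 RPM with wild-type rde-4, in overlapping groups. Of 10 members past the filter, 1 was called higher (4.56% of 658 features called, 2.28% higher) and 0 lower (2.28%; 158 features in all had an unadjusted p under 0.05). S5/23 rose to 39.5, 43.6 and 44.1 RPM in rde-4, against 20.0, 12.3 and 11.1 RPM with wild-type rde-4 (1.53 ± 0.25, adjusted p = 0.000199). M3/23 had 136, 143 and 130 RPM in rde-4 and 124, 111 and 117 RPM with wild-type rde-4 (0.22 ± 0.17, adjusted p = 0.407). The lowest value of the 10 was that of M7/21 (-0.83 ± 0.26, adjusted p = 0.0626).

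With no filter, M3/24 was called higher in the rde-4 inputs of HA::ALG-1, at 16.1, 15.1 and 17.3 RPM in rde-4 and 5.11, 4.84 and 4.74 RPM with wild-type rde-4 (1.54 ± 0.14, adjusted p = 1.11e-05; 8.3% of 21773 features called higher). M1/22 was called lower, at 1.41, 1.05 and 1.1 RPM in rde-4 and 3.17, 2.71 and 4.29 RPM with wild-type rde-4 (-0.99 ± 0.15, adjusted p = 0.000744; 4.5% called lower).

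The GFP::RDE-1 inputs on nrfl-1 RNAi, described without a test, differed most visibly in S5/23 and M3/24. S5/23 had 24.6, 18.7 and 24.2 RPM in rde-4 and 0.81, 1.72 and 1.96 RPM with wild-type rde-4. M3/24 had 7.43, 6.98 and 7.52 RPM in rde-4 and 0.57, 0.75 and 1.23 RPM with wild-type rde-4. The minor arm formed 20.5 to 21.8% of the sum in rde-4 and 10.8 to 11.8% with wild-type rde-4, so that M3/23 exceeded its partner S5/23 by 4.21 to 4.69 times in rde-4 and by 37.5 to 73.1 times with wild-type rde-4.

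In the double RNAi inputs none of the 14 members past the filter was called (4.87% of 4372 features called, 2.04% higher and 2.84% lower, and 359 with an unadjusted p under 0.05 in limma). S5/23 had 2.22 and 1.66 RPM in rde-4 and 0.48 and 0.36 RPM with wild-type rde-4, groups that do not overlap (1.04 ± 0.42, adjusted p = 0.263; 0.0295 with a pseudocount of 0.1). M3/23 was called higher without rde-4 input replicate 1 (1.23, adjusted p = 0.0069), against 0.43 ± 0.41 with all libraries.

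**Figure D4:**
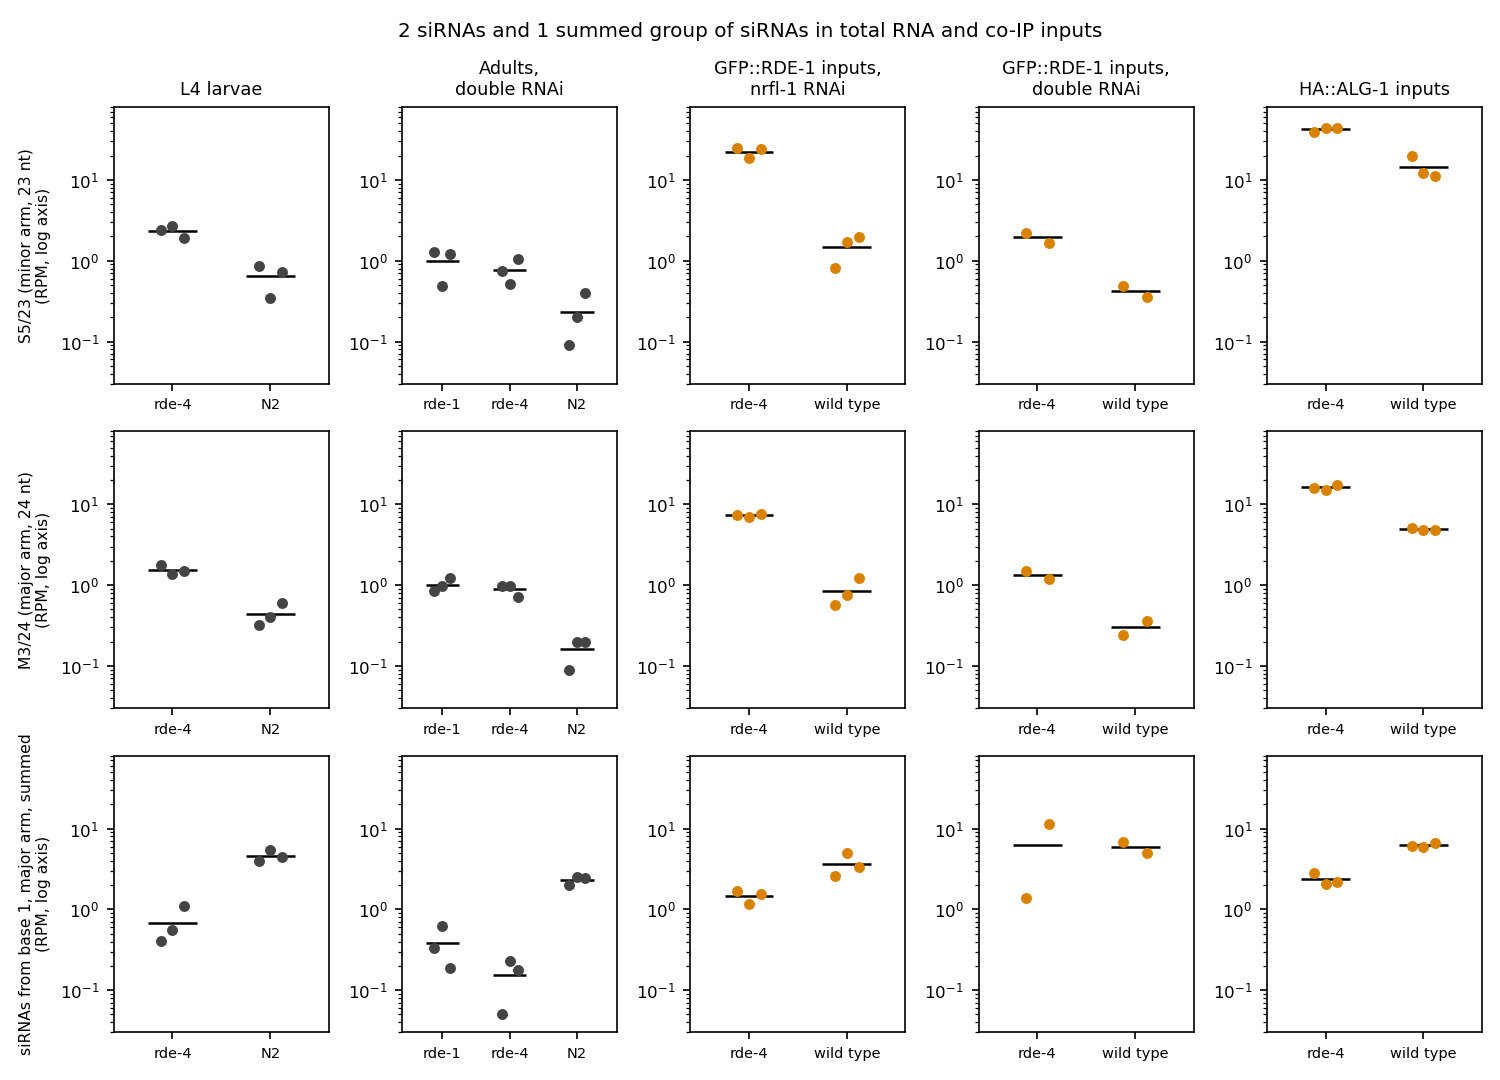
RPM of S5/23, of M3/24 and of all siRNAs from base 1 of the major arm in each library of total or input RNA (points, log axes; lines are group means). S5/23 and M3/24 lie higher in every rde-4 library than in every wild-type library of the same set, and in rde-1 adults too; siRNAs from base 1 lie lower, except in rde-4 input replicate 2 of the double RNAi set.

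ALG-1 held a different choice of mir-5592 siRNAs. With wild-type rde-4 the summed level was 238, 174 and 167 RPM in the co-IPs, against 377, 329 and 323 RPM in the inputs, a ratio of means of 0.563. Of the 10 members past the filter, 3 were called higher (93.2% of 658 features called, 7.45% higher) and 5 lower (85.7%). Of the 10, M6/23 and M7/21 passed the filter only through the co-IPs of this table, so the count of those called higher is no support; with no filter both were still called higher (adjusted p = 2.64e-07 and 0.0218). To look at microRNAs in the co-IP, miR-80-3p had 103212, 82999 and 102168 RPM in the co-IPs and 20103, 18638 and 20715 RPM in the inputs. With wild-type rde-4 it was also higher in the RDE-1 co-IPs than in their inputs. It had 48908, 28040 and 31550 against 10520, 14355 and 10171 RPM on nrfl-1 RNAi, and 43697 and 49330 against 20990 and 20801 RPM on double RNAi. On L4440 the groups overlapped. The rise of miR-80-3p thus does not single out ALG-1. Of 4 other microRNAs looked at, lin-4-5p was also higher in every co-IP than in every input, let-7-5p overlapped, and miR-58a-3p and miR-35-3p were lower.

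The 3 that rose with ALG-1 begin at bases 6 and 7 of the major arm. M6/23, which begins with A, had 33.4, 24.5 and 21.8 RPM in the co-IPs, against 6.38, 4.31 and 4.32 RPM in the inputs (2.19 ± 0.24, adjusted p = 8.94e-09). M7/22 had 35.6, 22.7 and 25 RPM in the co-IPs, against 16.1, 10.4 and 11.4 RPM in the inputs (1.07 ± 0.24, adjusted p = 0.000273). M7/21 rose by 0.67 ± 0.26 (adjusted p = 0.018), a call lost under equal totals (adjusted p = 0.0612) and without wild-type input replicate 2 (0.0546) or 3 (0.0788).

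Both strands of the M3/23 and S5/23 duplex fell in the ALG-1 co-IPs. M3/23 had 48.4, 41.7 and 36.4 RPM in the co-IPs, against 124, 111 and 117 RPM in the inputs (-1.46 ± 0.17, adjusted p = 3.7e-08). Its partner S5/23 had 4.17, 3.66 and 3.2 RPM in the co-IPs, against 20.0, 12.3 and 11.1 RPM in the inputs (-1.69 ± 0.25, adjusted p = 1.18e-06). M4/22, low in RDE-1 as well, fell furthest of the members past the filter, to 7.63, 6.83 and 5.02 RPM in the co-IPs, against 61, 58 and 62.3 RPM in the inputs (-3.05 ± 0.23, adjusted p = 1.03e-11). The median change of all 658 features tested was -3.16. M4/22 thus fell about as far as the typical feature, and M3/23 and S5/23 fell less. M5/22 and S5/21 were also called lower, while M5/21 (0.23 ± 0.25) and M5/23 (0.32 ± 0.25) did not pass the test.

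By share, siRNAs from bases 6 to 8 made up 45.4 to 50.3% of the sum in the ALG-1 co-IPs and 9.28 to 11.3% in the inputs. Those beginning with A made up 19.1 to 20.5% in the co-IPs and 2.92 to 3.9% in the inputs. In the RDE-1 co-IPs of the double RNAi set with wild-type rde-4, bases 6 to 8 gave 1.43 and 1.5% of the sum. Their inputs had 6.91 and 3.78%. On L4440 these bases gave 0.64, 0.89 and 1.26% in the RDE-1 co-IPs and 0.17, 0.35 and 0.23% in the inputs. M6/23 and M7/22 themselves rose with RDE-1 in the double RNAi set, by 4.90 and 4.74 with no filter. A low share in RDE-1 co-IPs is thus not a low enrichment.

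**Figure D5:**
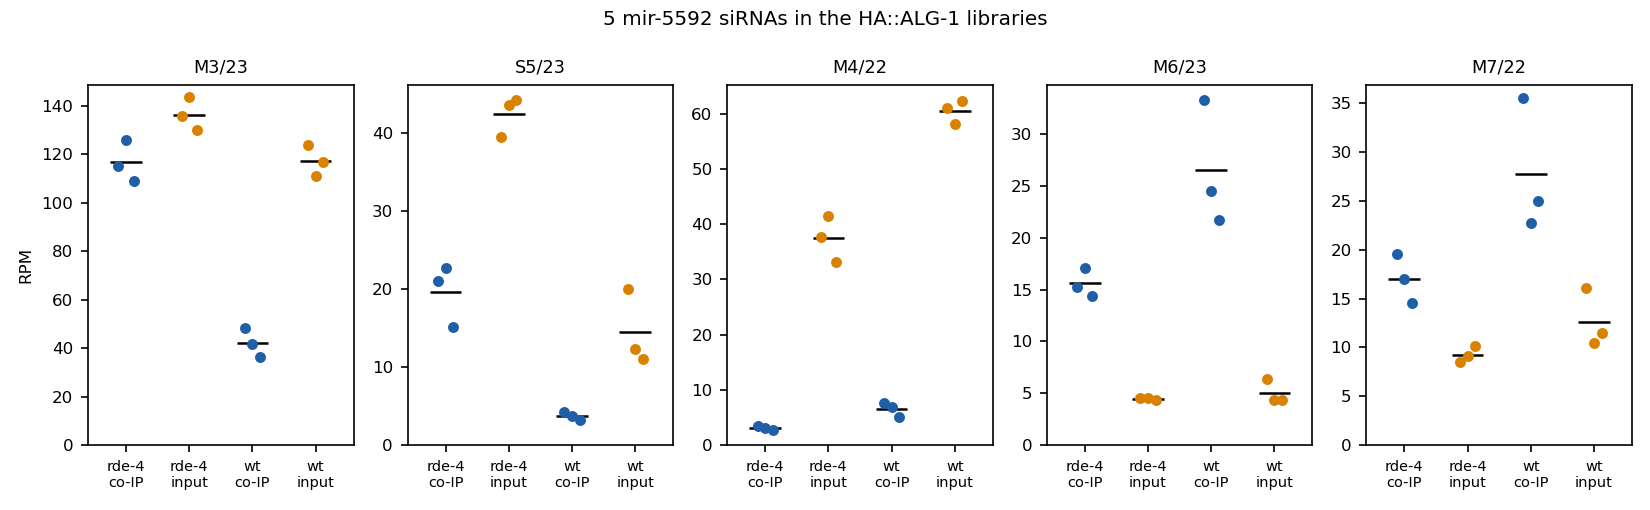
RPM of 5 siRNAs in each HA::ALG-1 library (points; lines are group means; wt, wild-type rde-4; blue, co-IPs; orange, inputs). M3/23 and S5/23 are higher in every rde-4 co-IP than in every wild-type co-IP, and M6/23 and M7/22 are higher in the co-IPs than in the inputs.

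In rde-4 animals more of M3/23 was recovered with ALG-1. M3/23 had 115, 126 and 109 RPM in the rde-4 co-IPs, against 136, 143 and 130 RPM in the rde-4 inputs (-0.22 ± 0.17, adjusted p = 0.222). Its enrichment was higher in rde-4 than with wild-type rde-4 by 1.24 ± 0.25 (limma interaction, adjusted p = 0.0328). It was the only one of 658 features called there (0.152% called higher and 0% lower, and 69 with an unadjusted p under 0.05). The call was lost when any one of 9 of the 12 libraries was left out, with adjusted p 0.0529 to 0.159, while under equal totals the difference was 1.65 (adjusted p = 0.000389).

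Of the 10 members, 2 were called higher in the rde-4 co-IP (93.9% of features called, 6.08% higher) and 4 lower (87.8%). Higher were M6/23 (1.60 ± 0.24, adjusted p = 1.25e-06) and M7/22 (0.81 ± 0.24, adjusted p = 0.00349), which had also risen with wild-type rde-4. M6/23 passed the filter only through the ALG-1 co-IPs, and with no filter its adjusted p was 5.34e-06. Lower were M4/22, M5/22, S5/21 and S5/23, where the median change of all features tested was -3.31. S5/23 had 21.1, 22.7 and 15.1 RPM in the rde-4 co-IPs, against 39.5, 43.6 and 44.1 RPM in the rde-4 inputs (-1.09 ± 0.25, adjusted p = 0.000296), and its enrichment differed by 0.60 ± 0.35 from that with wild-type rde-4 (adjusted p = 0.615). The share from bases 6 to 8 was 22.3 to 24.1% in the rde-4 co-IPs, against 45.4 to 50.3% in the co-IPs with wild-type rde-4, groups that do not overlap.

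dcr-1 RNAi was accompanied by lower input levels of a few siRNAs. siRNAs of the 23H kind made from the fed dcr-1 RNA reached 1664, 1529 and 1729 RPM in the dcr-1 RNAi inputs, against 3.55, 2.85 and 3.91 RPM in the L4440 inputs, which shows which animals were fed but not how far dcr-1 was reduced. The summed level of mir-5592 siRNAs was 391, 386 and 414 RPM in the dcr-1 RNAi inputs, against 522, 491 and 572 RPM in the L4440 inputs, groups that do not overlap, with a ratio of means of 0.752. All microRNAs together had 438838, 408778 and 421052 RPM in the dcr-1 RNAi inputs and 496186, 455598 and 494256 RPM in the L4440 inputs. Of 17 members past the filter, 4 were called lower (3.78% of 2516 features called, 0.994% lower) and 0 higher (2.78%; 769 features in all had an unadjusted p under 0.05 in limma).

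The 4 called lower were M1/22, M1/23, M2/23 and M5/23. M1/22 had 14.5, 17.2 and 15.9 RPM in the dcr-1 RNAi inputs, against 32.1, 22.8 and 34.2 RPM in the L4440 inputs (-0.84 ± 0.22, adjusted p = 0.0247). M5/23 had 1.64, 0.94 and 1.01 RPM in the dcr-1 RNAi inputs, against 3.89, 3.08 and 4.27 RPM in the L4440 inputs (-1.12 ± 0.23, adjusted p = 0.00543). Leaving out 1 library in turn gave 0 to 4 calls, with 0 without L4440 input replicate 1.

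The duplex M3/23 and S5/23 did not pass the test in these inputs. M3/23 had 137, 127 and 141 RPM in the dcr-1 RNAi inputs and 192, 188 and 219 RPM in the L4440 inputs, groups that do not overlap (-0.56 ± 0.19, adjusted p = 0.0722). S5/23 had 9.06, 10.3 and 9.55 RPM in the dcr-1 RNAi inputs and 9.84, 10.4 and 12.8 RPM in the L4440 inputs (-0.17 ± 0.20, adjusted p = 0.486). The highest value was that of M5/21 (0.50 ± 0.23, adjusted p = 0.144).

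RDE-1 co-IPs on dcr-1 RNAi had a summed level of 8097, 5841 and 7028 RPM, against 391, 386 and 414 RPM in the inputs, a ratio of means of 17.6. Of the 17 members, 16 were called higher (97.1% of features called, 6.24% higher and 90.9% lower), with M4/22 the exception (0.04 ± 0.23, adjusted p = 0.861). The same 9 of the 17 passed only through the co-IPs, so nothing is read from the count; with no filter 29 of the 39 were called higher, where 2.14% of 23892 features were. The largest rise was that of S5/23, with 715, 642 and 706 RPM in the co-IPs and 9.06, 10.3 and 9.55 RPM in the inputs (6.01 ± 0.20, adjusted p = 4.15e-22).

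None of the 17 passed the test of a difference in enrichment between dcr-1 RNAi and L4440 (limma interaction; 2.38% of features called, 0.795% higher and 1.59% lower, and 418 with an unadjusted p under 0.05). The extremes were S5/22 (1.0 ± 0.34, adjusted p = 0.122) and M2/21 (-0.86 ± 0.37, adjusted p = 0.241). Each became called without 1 L4440 co-IP, S5/22 without replicate 3 (1.21) and M2/21 without replicate 1 (-1.12). The minor arm made up 13.6, 17.6 and 14.5% of the sum in the dcr-1 RNAi co-IPs and 10.1, 7.11 and 11% in the L4440 co-IPs, groups that do not overlap and were not tested.

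The tables also list annotated mature microRNAs of the locus, whose sequences were not matched to the siRNAs here. miR-5592-3p, entered once for each of the 2 hairpin genes at equal values, had 286 and 348 RPM in the double RNAi RDE-1 co-IPs with wild-type rde-4, against 2.12 and 2.71 RPM in the inputs. In the HA::ALG-1 libraries with wild-type rde-4 it had 0.68, 0.78 and 0.8 RPM in the co-IPs, against 4.75, 4.2 and 5.51 RPM in the inputs. miR-5592-5p stayed at or below 6.34 RPM in all 59 libraries.

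The F43E2.6 siRNAs give a scale for these levels. In the double RNAi set, F43E2.6 siRNAs had 761 and 227 RPM in the rde-4 co-IPs and 42664 and 97923 RPM in the co-IPs with wild-type rde-4. The hairpin source of 123 sequences had 492 and 221 RPM in the rde-4 co-IPs and 7536 and 25048 RPM in the co-IPs with wild-type rde-4. mir-5592 made up 51.2 and 40.0% of all 23H-RNAs in the rde-4 co-IPs and 16.9 and 9.81% in the co-IPs with wild-type rde-4.

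Over the 21 groups of the 6 tables, each table centred on its own mean, the level of each of 3744 features was set against the summed mir-5592 siRNAs. The closest were both entries of miR-5592-3p (Pearson r = 0.97 each), the 23H-RNAs of F19B2.5 (r = 0.96) and another 2 entries of the 23H-RNA class (r = 0.94 and 0.93). The points share libraries, and the contrast of co-IPs with inputs sets much of the spread, so r is a description only.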

How the data were processed

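RPM values of small RNAs, as deposited by the authors, were taken from 6 tables; per the series' design text the authors made them with the tinyRNA pipeline, and its version, aligner and annotation are not given in the sources used here. The tables were scaled separately and were not tested against each other. Values were log2(RPM + 1) transformed, features with a mean under 10 RPM in a table were left out, and all groups of a table were fitted together in limma 3.58.1 (R 4.3.3) with a mean-variance trend and Benjamini-Hochberg adjustment over all features tested; an adjusted p under 0.05 was called. The script was tested on simulated data. Table totals were 469342 to 903085 RPM. Whole reads could be recovered for low piRNA values in 58 of the 59 libraries (98.7 to 99.9% within 0.0055 RPM), not for nearly all features, so no count model was used. In replicate 2 of the L4440 RDE-1 co-IPs only 59.2% of these values were whole.

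The text names the 8 siRNAs of highest mean level and the largest rise and fall in each comparison, and others as stated. The members and lists were chosen with earlier results of these data known. Alternatives were no filter, a pseudocount of 0.1 RPM, equal totals over all features or over microRNAs, a replicate block and leaving out each library.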

Additional observations from a re-analysis of the deposited data

Results flagged for a closer look

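RDE-1 enrichment in rde-4 minus RDE-1 enrichment with wild-type rde-4 differed in the double RNAi set for 12 named siRNAs, each past the limma interaction test and each higher in its wild-type co-IPs than in its inputs. Of the 12, only M3/22 and M3/23 passed the filter on low values without the wild-type co-IPs, so the number of siRNAs past the test is not support, and with no filter M3/21, M3/22, M3/23, M4/22 and S5/23 missed the threshold. The differences were -7.23 ± 0.52 for M5/23, -6.91 ± 0.57 for M1/21, -6.79 ± 0.61 for M1/22, -6.23 ± 0.50 for M1/23 and -5.87 ± 0.45 for M2/21 (log2 scale, SE). They were -4.11 ± 0.58 for M3/23, -4.08 ± 0.51 for M6/23, -3.86 ± 0.59 for S5/23, -3.56 ± 0.47 for M5/21, -3.20 ± 0.51 for M4/22, -3.02 ± 0.60 for M3/22 and -2.80 ± 0.58 for M3/21. In the nrfl-1 RNAi set the difference was -5.28 ± 0.31 for M1/23 and -4.97 ± 0.83 for S5/23 (SE from a fit without pairing): for both, each rde-4 co-IP lay below the mean of the rde-4 inputs and each co-IP with wild-type rde-4 lay above the mean of its inputs, and the difference was not tested. The rde-4 values of M1/23 there were few reads, 0, 0 and 0.09 RPM in the co-IPs and 0.13, 0.3 and 0.18 RPM in the inputs. In those libraries 3 reads are 0.129 to 0.152 RPM. In ALG-1 co-IPs the enrichment of M3/23 differed in the other direction, by 1.24 ± 0.25.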

How the results depend on the processing

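No called result changed direction under the alternatives run. Scaling moved some log2 ratios of summed levels. Under equal totals over all features, co-IP against input was 6.85 with wild-type rde-4 on double RNAi, -0.41 for ALG-1 in rde-4, 3.80 on dcr-1 RNAi and 3.55 on L4440, and the rde-4 difference in ALG-1 enrichment was 0.62. Under equal microRNA totals the values were 5.79 for double RNAi, 3.17 on dcr-1 RNAi, 3.12 on L4440 and 0.59 for that difference, and dcr-1 RNAi against L4440 inputs gave -0.22. Equal totals shifted the median of all features by -0.409 to 0.151 in co-IPs against inputs, and by 0.286 for that difference.

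Calls among members changed most with no filter, which tested more members. They were 7 (3 higher and 4 lower, against 5.94% and 9.11% of all features) in L4 larvae, 3 (1 higher and 2 lower, against 1.82% and 2.08% of all features) in rde-1 and 5 (1 higher and 4 lower, against 4.78% and 2.3% of all features) in rde-4 adults against N2, and 4 (0 higher and 4 lower, against 4.51% and 3.16% of all features) in rde-4 against rde-1. On double RNAi they were 3 (3 higher and 0 lower, against 0.853% and 39.2% of all features) in rde-4 and 38 (38 higher and 0 lower, against 6.22% and 46.4% of all features) in wild-type RDE-1 co-IPs. They were 23 (5 higher and 18 lower, against 0.542% and 61.1% of all features) in rde-4 and 27 (5 higher and 22 lower, against 0.836% and 61.4% of all features) in wild-type ALG-1 co-IPs, 13 (3 higher and 10 lower, against 8.3% and 4.5% of all features) in ALG-1 inputs, 29 (29 higher and 0 lower, against 2.14% and 63.6% of all features) in dcr-1 RNAi and 34 (32 higher and 2 lower, against 3% and 55.3% of all features) in L4440 co-IPs. In rde-4 RDE-1 co-IPs on double RNAi, where no member was called lower with all libraries and the filter, M4/22 was called lower under equal totals, with the replicate block and without co-IP replicate 1, and M2/21 under equal totals, with a pseudocount of 0.1, and without co-IP replicate 2 or input replicate 1. Under equal totals 1 was called in L4 larvae and 3 in ALG-1 inputs. A pseudocount of 0.1 called 1 in double RNAi inputs.

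Between the 2 groups of each tested 2-group comparison with 3 replicate numbers, not all same-numbered pairs deviated together (r over 0.1), and the double RNAi set has 2 numbers only (r = 0.297 between its inputs), so the number was not taken as a pairing. Pairs did deviate together between ALG-1 rde-4 inputs and wild-type co-IPs (r = 0.132 to 0.367), which meet only in the interaction; with the block the M3/23 interaction had an adjusted p of 0.0326. They also did so in the untested nrfl-1 RNAi set between both kinds of co-IP (r = 0.38 to 0.716), between co-IPs and inputs with wild-type rde-4 (r = 0.285 to 0.493) and between rde-4 co-IPs and wild-type inputs (r = 0.224 to 0.507). The replicate block called 0 in rde-1 adults against N2 (adjusted p = 0.0531 for M3/23), 1 in double RNAi inputs (S5/23, adjusted p = 0.0208) and 2 in ALG-1 inputs.

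Leaving out 1 library in turn gave 1 to 2 calls in L4 larvae, 0 to 1 in rde-1 adults against N2, 0 to 1 in double RNAi inputs, 0 to 1 for the ALG-1 difference, 0 to 1 for the dcr-1 RNAi difference and 0 to 4 in dcr-1 RNAi inputs. It gave log2 ratios of sums of 1.87 to 4.15 for rde-4 RDE-1 co-IPs on double RNAi and -5.43 to -3.14 for their difference from wild type. Depth limits every value near 3 reads, and groups of 2 to 3 libraries limit the rest; the causes of these changes were not tested.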
